A study of Mus musculus with 6 samples.

Results

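Complement genes were followed in NMuMG, a cell line of immortalised mouse mammary epithelium, through TGF-β treatment and its removal. The set named 8 genes, C1s1, C3, C4b, Cfb, Cfi, Cd55, Cd59a and Masp1, which were matched to probe sets by gene symbol. Of these, 6 had a probe set annotated with that symbol alone, out of 18193 genes measured, and each was read by its probe set with the highest mean over the 6 arrays. C4b was annotated only on a probe set that also carries another symbol, and C3 had no match by symbol, so neither is analysed here. The samples were 3 groups of 2 Affymetrix arrays each. Control cells received vehicle, cells of the TGF-β group were kept for 11 days with the cytokine TGF-β at 4 ng/ml, and the withdrawal group received the same 11 days of TGF-β and then 13 days without it. All groups were the same line, grown in a medium that contained serum and insulin.

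Complement is a set of plasma and cell-surface proteins that tag particles and lyse membranes. The classical pathway starts when C1q binds a target and activates the proteases C1r and C1s, and the lectin pathway when sugar-binding proteins activate MASP proteases. Both cleave C4 and C2, while the alternative pathway amplifies through factor B. Host cells hold the cascade back with soluble factor I, with decay-accelerating factor (CD55) and with CD59, which blocks the membrane attack complex. The liver makes most plasma complement, and epithelial cells also make some components.

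Each probe set has a log2 expression value that the authors computed with RMA. Array medians were 5.77 to 5.79. Pearson's r over probe sets was 0.998 within each group and 0.974 to 0.981 between groups. No label states that replicates were separate cultures, so the p-values cover only how far these samples vary, and that variation may be technical. A free-text label field attaches the names of the mesenchymal and epithelial states to the treated groups the other way round, and the groups here follow the titles and the treatment entries. Col1a1, the collagen gene that TGF-β is known to induce, was at 9.57 and 9.83 on the arrays titled TGF-β and at 6.43 and 6.16 on those titled withdrawal. Among 8 epithelial markers, the keratin genes Krt8 and Krt18 lay between 13.36 and 14.33 on all 6 arrays. Both were lower than control in both treated groups. Krt8 was at -0.73 under TGF-β and -0.94 after withdrawal, and Krt18 at -0.53 and -0.53. The junction genes Cdh1 and Ocln were at -3.63 and -3.29 under TGF-β and rose by 3.49 and 2.93 on withdrawal, while the keratin gene Krt7 was at -4.70 from control after withdrawal. The leukocyte gene Ptprc, which leukocytes share, lay between 3.79 and 4.05. Differences were tested with limma over all 18193 genes, with a call at an adjusted p below 0.05. The labels give no day for the controls, and time in culture and treatment cannot be told apart.

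C1s1 and its chromosome neighbour C1ra rose together on withdrawal, and Cd55 was lower in both treated groups, so the promoter windows of these genes are shown here. Each runs from 250 bases before the RefSeq start site to 50 after it, in assembly GRCm38.p6. For C1s1, which has 2 start sites in the table, the outer one was taken. The windows lie at chr6:124542310-124542609 on the minus strand for C1s1, chr6:124512371-124512670 on the plus strand for C1ra, and chr1:130462695-130462994 on the minus strand for Cd55. Capitals mark matches to motifs of factors known to act on complement genes.
C1s1: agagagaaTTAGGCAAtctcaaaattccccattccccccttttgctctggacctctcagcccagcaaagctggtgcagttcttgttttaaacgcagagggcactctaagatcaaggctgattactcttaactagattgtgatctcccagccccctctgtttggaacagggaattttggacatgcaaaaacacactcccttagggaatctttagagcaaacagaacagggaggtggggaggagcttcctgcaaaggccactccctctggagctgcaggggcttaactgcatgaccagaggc
C1ra: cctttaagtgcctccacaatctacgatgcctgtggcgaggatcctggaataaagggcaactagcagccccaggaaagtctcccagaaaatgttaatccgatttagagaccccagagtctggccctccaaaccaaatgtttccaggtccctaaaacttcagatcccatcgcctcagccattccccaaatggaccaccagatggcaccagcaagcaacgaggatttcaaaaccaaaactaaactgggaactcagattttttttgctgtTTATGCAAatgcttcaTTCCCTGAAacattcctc
Cd55: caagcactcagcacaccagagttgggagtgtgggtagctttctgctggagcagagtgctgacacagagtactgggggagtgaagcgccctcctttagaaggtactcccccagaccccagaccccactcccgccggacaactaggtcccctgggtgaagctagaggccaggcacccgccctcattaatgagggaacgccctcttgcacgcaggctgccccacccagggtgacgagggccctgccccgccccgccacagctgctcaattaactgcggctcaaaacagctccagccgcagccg

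Both strands were searched for the motifs of C/EBP (TTGCNNAA), STAT (TTCNNNGAA), AP-1 (TGANTCA), HNF4 (CAAAGTCCA) and, by name, IRF and NF-kappaB. The C1s1 window held a C/EBP match, TTAGGCAA, that begins 242 bases before the start site. The C1ra window held a C/EBP match, TTATGCAA, 17 bases into the transcript and a STAT match, TTCCCTGAA, 33 bases into it. No match to these 6 motifs was found in the Cd55 window. Among 32851 windows of the same length in the table, 10.8% held a C/EBP match and 8.3% a STAT match, with 3.44% for IRF, 7.81% for AP-1, 8.46% for NF-kappaB and 0.475% for HNF4. The matches are letters in a window and were not tested as binding sites. Of the 8 genes named, 4 had a promoter in the table.

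Of the 6 measured complement genes, 4 passed between TGF-β and control, with Cfi higher and Cfb, Cd55 and Masp1 lower. Over all genes 32.4% passed in that comparison, 15% higher and 17.5% lower. Scaling to spikes, RNAs added before labelling (poly-A) or before hybridization, moved that split from 2726 higher and 3175 lower to 777 and 4888 with poly-A spikes and 1362 and 5504 with hybridization spikes. Between withdrawal and TGF-β 4 passed, with C1s1, Cfb and Masp1 higher and Cfi lower, against 43.9% of all genes, 21.8% higher and 22.1% lower, where the spikes moved 3960 higher and 4023 lower to 3423 and 1410, or 2303 and 7877. Between withdrawal and control 5 passed, with C1s1, Cfb, Cd59a and Masp1 higher and Cd55 lower, against 45.3% of all genes, 21.7% higher and 23.6% lower, and 3 passed without either control array. There the spikes moved 3943 higher and 4292 lower to 1917 and 3441, or 1712 and 12948. The median difference of the 6 genes was -0.30, 0.41 and 0.28 in the 3 comparisons, and that of all genes -0.01, -0.03 and -0.04. The comparisons share arrays, so their calls are not independent of each other.

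**Figure D1:**
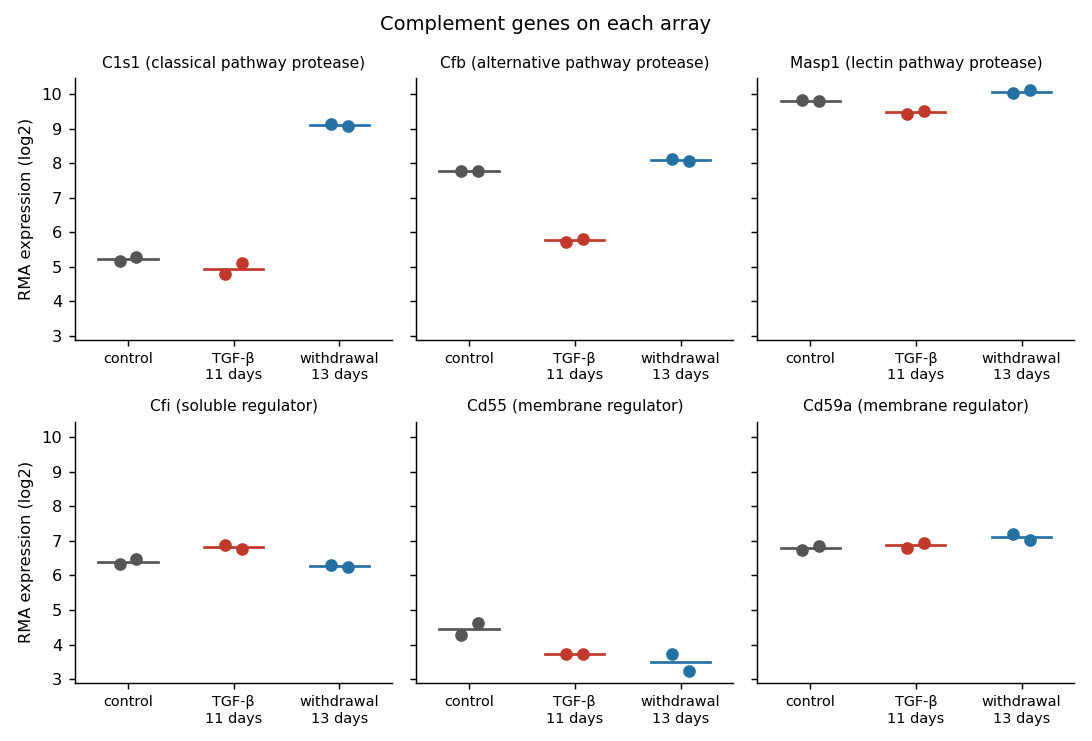
RMA expression (log2) of the 6 measured complement genes on each array; points are arrays, lines are group means (n = 2). C1s1 is near 5 on the control and TGF-β arrays and near 9.1 on the withdrawal arrays, and Cfb is lower on both TGF-β arrays than on the other 4.

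The C1s1 gene, which encodes the classical pathway protease C1s, was high in withdrawn cells alone among the 3 groups. Its log2 expression was 5.16 and 5.27 in control, 4.80 and 5.10 under TGF-β, and 9.12 and 9.07 after withdrawal. The withdrawal arrays lie far above the other 4. The difference was 4.14 ± 0.11 (SE) from TGF-β and 3.88 ± 0.11 from control, or 17.7-fold and 14.7-fold, with limma adjusted p = 5.14e-06 and 5.40e-06. No detection calls were used, so the level in control and TGF-β cells is not shown to be above background, and the folds are against that measured level. Under TGF-β the C1s1 arrays lay below the control arrays, by 0.27 ± 0.11, and did not pass limma (adjusted p = 0.123). Without the first TGF-β array it was -0.11 (adjusted p = 0.395), and without the second it was -0.42 and passed (0.0202). It also passed with scaling to poly-A or hybridization spikes, at -0.56 and -0.44. In a bulk sample, a change in RNA per cell and a change in the share of cells that express a gene cannot be told apart.

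C1s1 has a single probe set here, 1424041_s_at, and the suffix marks probes shared between transcripts. C1s2, a close relative of C1s1, was not matched by symbol, so signal from it cannot be separated. C1ra encodes C1r, the protease that activates C1s, and no protein-coding gene lies between C1ra and C1s1 in the RefSeq order. It was at 6.65 and 6.82 in control, 6.52 and 6.55 under TGF-β, and 10.00 and 9.96 after withdrawal. The 2 withdrawal arrays again stand apart, at 3.45 ± 0.07 above TGF-β and 3.25 ± 0.07 above control (limma adjusted p = 2.68e-06 and 3.47e-06). Under TGF-β C1ra was at -0.20 from control and did not pass (adjusted p = 0.0785), while it was -0.29 and passed without the first control array (0.0401) and was -0.12 without the second (0.308). It also passed with both spike scalings, with an intensity trend and without the dimmest 40% of genes. The C1q subunit genes C1qa, C1qb and C1qc, whose product recruits both proteases, lay between 4.11 and 4.92 on all 6 arrays and passed in no comparison.

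Cfb, which encodes factor B, the protease of the alternative pathway, was low under TGF-β. It was at 7.78 and 7.78 in control, 5.73 and 5.80 under TGF-β, and 8.11 and 8.06 after withdrawal. Both TGF-β arrays lie below all others, and the withdrawal arrays lie slightly above control. Cfb fell by 2.02 ± 0.05 under TGF-β, 4.04-fold lower, and rose by 2.32 ± 0.05 on withdrawal (limma adjusted p = 5.22e-06 and 3.43e-06). After withdrawal it was 0.31 ± 0.05 above control (adjusted p = 0.00439), but this difference did not pass with poly-A scaling, at 0.17, and was -0.07 with hybridization spike scaling. C2, the gene next to Cfb in the RefSeq order, encodes the classical pathway counterpart of factor B. Its brightest probe set, an x-type set open to cross-hybridisation, lay between 7.39 and 7.60 on all 6 arrays and passed in no comparison. The other 2 sets of C2 were higher on the withdrawal arrays than on all others, with differences from TGF-β of 0.93 and 1.22 and from control of 0.64 and 0.72 (adjusted p = 9.35e-04, 2.44e-04, 0.00458 and 0.00224 in a limma fit over probe sets). Against control the same 2 sets of C2 were at -0.29 and -0.50 under TGF-β (adjusted p = 0.109 and 0.0155), so the answer for C2 depends on the probe set.

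Masp1 encodes a serine protease of the lectin pathway and, through alternative transcripts, related proteins that share its first domains. Its brightest probe set was at 9.81 and 9.80 in control, 9.43 and 9.52 under TGF-β, and 10.02 and 10.11 after withdrawal. The 3 groups do not overlap, and the order is TGF-β, control, withdrawal. The difference was -0.33 ± 0.06 under TGF-β, 0.59 ± 0.06 on withdrawal from TGF-β, and 0.26 ± 0.06 from control (limma adjusted p = 0.00723, 4.35e-04 and 0.0140). With the mean of its probe sets, the difference of Masp1 under TGF-β was -0.15 and did not pass (0.0609). The difference from control after withdrawal did not pass without either control array (adjusted p = 0.0616 and 0.0688), without the second withdrawal array (0.0639), with the mean of probe sets or the second set, or with either spike scaling, and turned to -0.12 with hybridization spikes.

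The 5 probe sets of Masp1 did not move alike. The next 2 by brightness, 1425985_s_at and 1438603_x_at, were also lowest under TGF-β and highest after withdrawal, with rises on withdrawal of 0.57 and 0.64. The set 1455346_at was at 6.53 and 6.23 in control, 6.36 and 6.27 under TGF-β and 6.05 and 6.15 after withdrawal, and passed in no comparison. The dimmest, 1419677_at, went the other way, at 4.40 and 4.41 in control, 4.74 and 4.67 under TGF-β and 4.39 and 4.33 after withdrawal. It was higher under TGF-β by 0.30 ± 0.06 and lower on withdrawal by 0.34 ± 0.06 (adjusted p = 0.0137 and 0.00524 in the limma fit over probe sets). The 3 sets that follow the first pattern have names ending in s or x, and the other 2 do not. Which Masp1 transcripts each set reads was not tested.

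**Figure D2:**
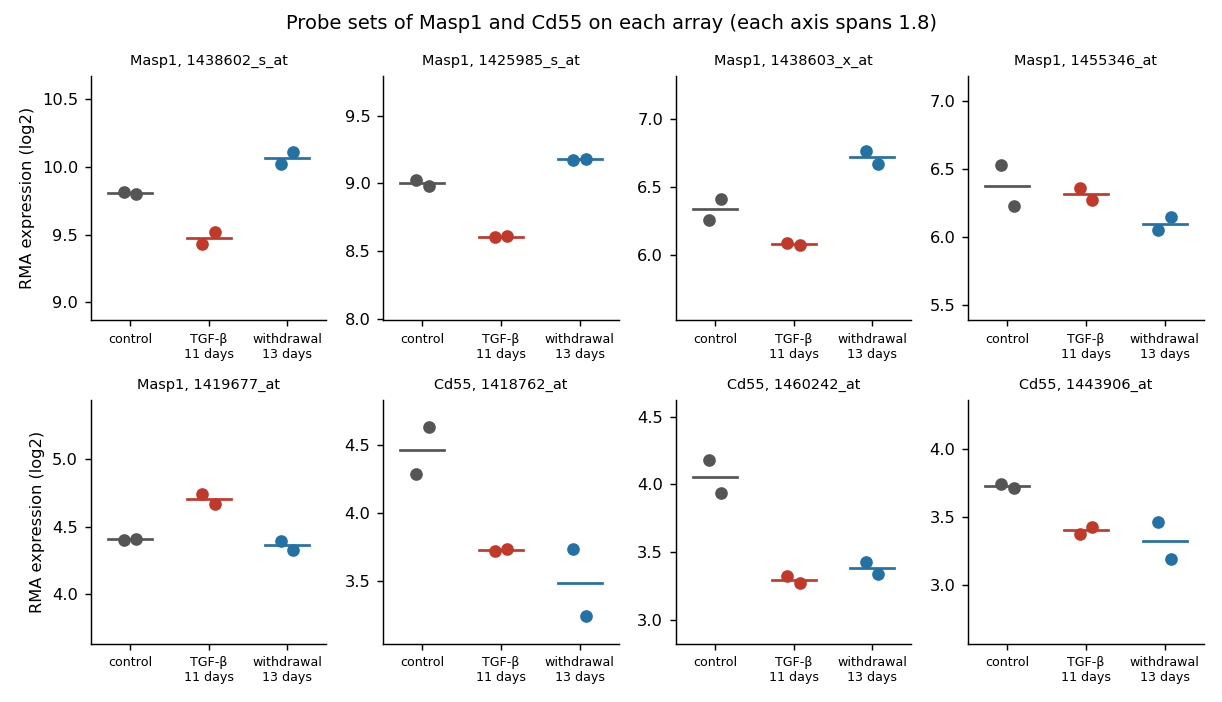
RMA expression (log2) on each array for the 5 probe sets of Masp1 and the 3 of Cd55; points are arrays, lines are group means (n = 2), and each vertical axis spans 1.8 log2 units. For Masp1, 3 sets are lowest under TGF-β and 1419677_at is highest there; for Cd55 all 3 sets are highest in control.

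The soluble regulator gene Cfi encodes factor I, which degrades active C3b and C4b fragments. It ran opposite to Cfb in direction, at 6.32 and 6.48 in control, 6.89 and 6.78 under TGF-β, and 6.30 and 6.25 after withdrawal. The TGF-β arrays are above the other 4, and the withdrawal arrays are just below control. Cfi rose by 0.43 ± 0.08 under TGF-β and fell by 0.56 ± 0.08 on withdrawal (limma adjusted p = 0.00679 and 0.00153). After withdrawal it was at -0.13 ± 0.08 from control, which did not pass (adjusted p = 0.229) but did with hybridization spikes, at -0.51. The rise under TGF-β did not pass with spike scaling, at 0.14 with poly-A and 0.26 with hybridization spikes, and the fall on withdrawal did not pass with poly-A scaling, at -0.40 (adjusted p = 0.506, 0.0928 and 0.0844).

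Cd55 encodes a membrane protein that speeds the decay of the convertases on host cells. It was at 4.29 and 4.63 in control, 3.72 and 3.73 under TGF-β, and 3.73 and 3.24 after withdrawal. Both control arrays are above the 4 treated arrays, and the treated groups overlap. These are low values, since only 8.67% of genes had a lower mean, and no detection calls were used that would set such a level apart from background. Cd55 differed from control by -0.74 ± 0.18 under TGF-β and by -0.98 ± 0.18 after withdrawal (limma adjusted p = 0.0258 and 0.00605). The difference under TGF-β did not pass without the second control array, or without either TGF-β array (adjusted p = 0.126, 0.0913 and 0.0890), or with the replicate number as a block (0.0514). The other 2 Cd55 probe sets were also highest in control, at -0.76 and -0.33 under TGF-β and at -0.67 and -0.40 after withdrawal (adjusted p = 0.00169, 0.0528, 0.00159 and 0.0175 in the limma fit over probe sets). Between withdrawal and TGF-β Cd55 differed by -0.24 ± 0.18 and did not pass (adjusted p = 0.348), and the difference was 0.01 without the second withdrawal array, and -0.44 and past the threshold with hybridization spikes.

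Cd59a encodes a lipid-anchored surface protein that stops assembly of the membrane attack complex. It was at 6.74 and 6.84 in control, 6.79 and 6.95 under TGF-β, and 7.19 and 7.02 after withdrawal. The control and TGF-β arrays overlap, and the withdrawal arrays are above both. The difference was 0.08 ± 0.09 under TGF-β (limma adjusted p = 0.564), turning to -0.21 and -0.10 with poly-A and hybridization spike scaling. After withdrawal Cd59a was 0.32 ± 0.09 above control (adjusted p = 0.0289). This call was lost without either control array or the first withdrawal array (adjusted p = 0.138, 0.0605 and 0.124), with renewed quantile normalisation (0.0613), with the replicate block (0.0517) and with both spike scalings, where hybridization spikes gave -0.06. From TGF-β the difference was 0.24 ± 0.09 (adjusted p = 0.0773), and the other Cd59a probe set gave 0.43 (adjusted p = 0.0329 in the limma fit over probe sets). It passed with the mean of both sets, at 0.33, and without the dimmest 40% of genes (0.0363).

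**Figure D3:**
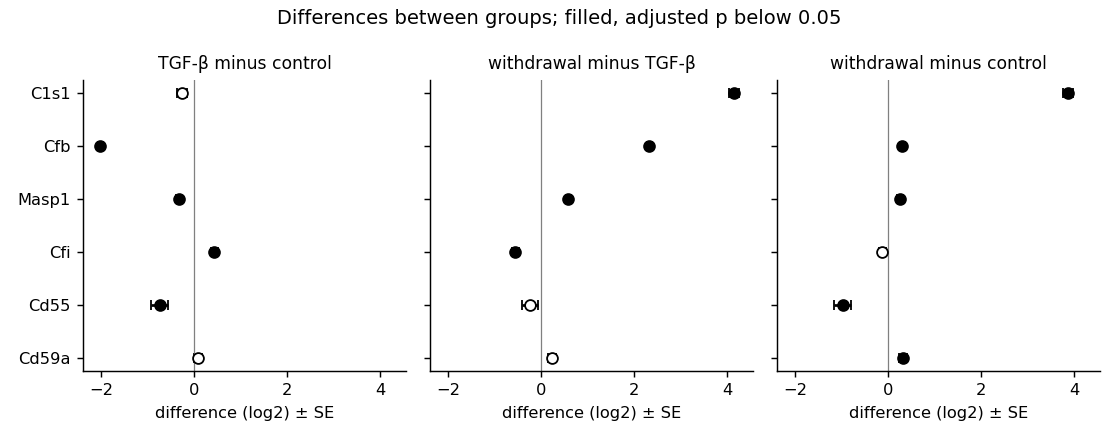
Log2 differences between group means of the 6 measured complement genes, with standard errors from limma; filled points have an adjusted p below 0.05. C1s1 and Cfb have differences of more than 2 in size, and those of the other 4 genes are below 1.

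The rest of the complement pathway was described with a list of 51 genes, of which 41 were measured. Under TGF-β 3 were higher, 2 lower and 36 did not pass. On withdrawal from TGF-β 7 were higher and 6 lower, and after withdrawal 6 were higher and 5 lower than control. Fewer genes of this list passed in each comparison with any 1 array left out, and fewer of all genes passed in those refits as well. With all 6 arrays, the shares of the list that passed, 12.2%, 31.7% and 26.8%, compare with 32.4%, 43.9% and 45.3% of all genes. The list's median differences were 0.02, -0.06 and -0.03. Many of the 41 are dim. Without the dimmest 40% of genes, 13 of the list were still measured. Of these 13, 5, 7 and 7 passed, beside 57.2%, 69.9% and 71.3% of all genes in that setting.

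Among the 10 recognition genes, Colec12 was the gene that passed, in each of the 3 comparisons. It encodes a scavenger receptor of the collectin family on the cell surface. Its log2 expression was 4.09 and 4.10 in control, 6.43 and 6.50 under TGF-β, and 9.48 and 9.37 after withdrawal. The groups do not overlap, and the level went up at both steps, by 2.37 ± 0.06 and by a further 2.96 ± 0.06 (limma adjusted p = 4.56e-06 and 2.63e-06). The difference between withdrawal and control was 5.33, against a control level that is not shown to be above background.

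Among the 13 regulators, C4bp, which encodes the binding protein that acts with factor I on C4b, rose on withdrawal. It was at 6.25 and 6.28 in control, 5.86 and 6.13 under TGF-β, and 7.94 and 8.09 after withdrawal, with the withdrawal arrays above all others. The difference was 2.02 ± 0.10 from TGF-β and 1.75 ± 0.10 from control (limma adjusted p = 2.90e-05 and 4.38e-05). In the RefSeq order, 1 protein-coding gene, Zp3r, lies between C4bp and Cd55, and Cd55 did not pass on withdrawal from TGF-β. Cpn1, a carboxypeptidase that trims the anaphylatoxins, was at -0.36 under TGF-β and 0.44 on withdrawal from it (limma adjusted p = 0.0491 and 0.0193). The first of these was -0.20 and did not pass without the first control array (0.113), and was lost without any 1 of the TGF-β or withdrawal arrays and with the replicate block (0.0668). The second was lost without any 1 of the TGF-β or withdrawal arrays, and the second probe set of Cpn1 passed in neither, at -0.19 and 0.014. Csmd1 was at -0.40 from control after withdrawal, where its second probe set gave 0.18. Cd55b, the relative of Cd55 next to it, lay between 2.98 and 3.26 and passed in no comparison.

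Among the 8 receptor genes, Cd93 was higher under TGF-β by 0.93 and lower on withdrawal by 0.72. C3ar1, the receptor for the C3a fragment, was at -0.20 under TGF-β and -0.69 after withdrawal against control, but its second probe set gave 0.17 under TGF-β and did not pass. The C3ar1 call under TGF-β was also lost without any 1 of the control or TGF-β arrays and with the replicate block (adjusted p = 0.0523). Itgb2, an integrin chain of the complement receptors on leukocytes, was at 0.38 from control after withdrawal, a call lost without the first control array (adjusted p = 0.0523) and with both spike scalings. Properdin, encoded by Cfp, stabilises the alternative convertase, and was lower on withdrawal than under TGF-β by 0.69 and than in control by 0.37. Its second probe set gave -0.32 and 0.07 in these comparisons and did not pass, and the difference from control was lost without the second control array or either withdrawal array. Masp2, the lectin pathway protease that cleaves C4 and C2, lay between 5.63 and 5.86 on all arrays and passed in no comparison. Of the 6 terminal pathway genes, C9 was at 0.24 under TGF-β and C8g at 0.36 after withdrawal against control. The C9 call was lost without the first control array (adjusted p = 0.142) or either TGF-β array (0.114 and 0.0839), with an intensity trend (0.115) and with spikes, where poly-A gave -0.055. The C8g call was lost without either control array (0.0633 and 0.0719) or the first withdrawal array (0.0566) and with spikes.

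**Figure D4:**
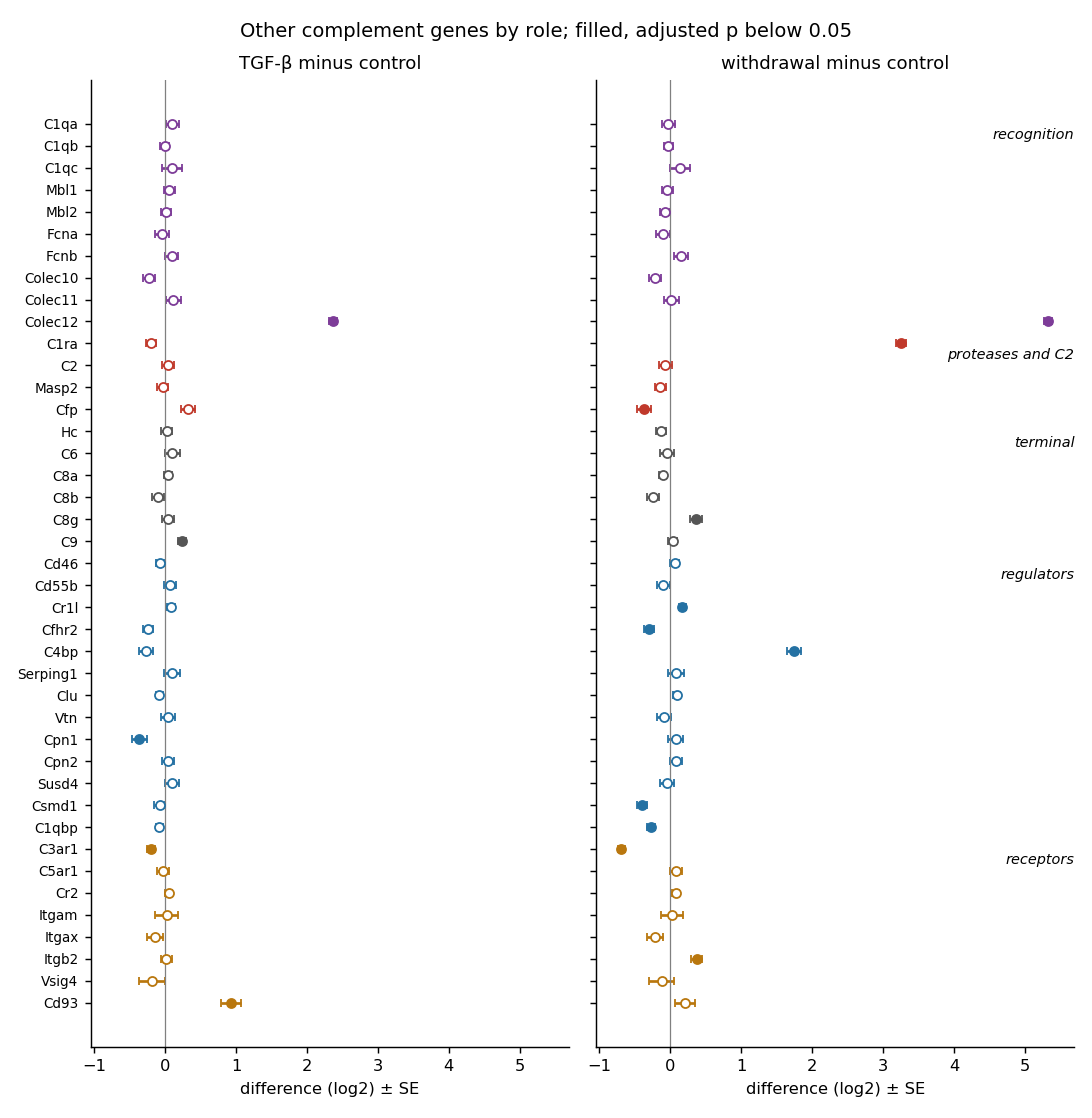
Log2 differences from control of the 41 other measured complement genes under TGF-β and after withdrawal, ordered by role, with standard errors from limma; filled points have an adjusted p below 0.05. Colec12, C1ra and C4bp are the genes above 1 after withdrawal, and Colec12 is the gene above 1 under TGF-β.

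Factor B belongs to the acute phase proteins, plasma proteins that the liver makes more or less of in inflammation. Of 25 other acute phase genes measured, limma called 0 higher and 6 lower under TGF-β, the same numbers as at an unadjusted p below 0.05. On withdrawal from TGF-β 8 were higher and 1 lower. After withdrawal, 7 were higher and 1 lower than control. Those shares, 24%, 36% and 32%, are below those of all genes, but the first depends on dim genes. Without the dimmest 40% of genes, 8 of the 25 were still measured. Under TGF-β 6 of these 8 passed, all lower, beside 57.2% of all genes in that setting. Hpx, which encodes the haem carrier hemopexin, was at 9.48 and 9.52 in control, 5.60 and 5.59 under TGF-β, and 9.36 and 9.34 after withdrawal. Like Cfb, it was low on the TGF-β arrays alone, with differences of -3.91 and 3.76. The ceruloplasmin gene Cp was at -2.50 and 4.76 and the C-reactive protein gene Crp at -1.91 and 2.63. The lipopolysaccharide binding protein gene Lbp was at -1.34 and 1.51. The second probe set of Lbp gave 0.23 on withdrawal from TGF-β and did not pass. After withdrawal Cp and Crp were 2.26 and 0.72 above control, while Hpx and Lbp, at -0.15 and 0.17, did not pass. The metallothionein genes Mt1 and Mt2 rose on withdrawal by 1.82 and 2.24 and the fibrinogen gene Fgb by 1.38. The serum amyloid A gene Saa3 and the lipocalin gene Lcn2, both strongly inducible in inflammation, lay between 5.79 and 6.04 and between 3.26 and 3.63, with Lcn2 at -0.27 from control after withdrawal, a call lost without the second control or the first withdrawal array.

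In a list of inducers and transcription factors of complement genes, 28 were measured, with 9 higher and 11 lower under TGF-β, 15 higher and 3 lower on withdrawal from it, and 13 higher and 6 lower after withdrawal than in control. The shares that passed were 71.4%, 64.3% and 67.9%, beside 32.4%, 43.9% and 45.3% of all genes. Hnf4a, a liver and epithelial nuclear receptor, was at 9.93 and 10.01 in control, 7.07 and 7.01 under TGF-β, and 9.63 and 9.67 after withdrawal. Cebpb, a factor of the acute phase response, was at 11.05 and 11.01, then 9.58 and 9.54, then 10.70 and 10.66. Both were low on the TGF-β arrays, as Cfb was, with differences under TGF-β of -2.93 and -1.47 (limma adjusted p = 2.40e-06 and 1.32e-05). Unlike Cfb, both were called lower than control after withdrawal, at -0.32 and -0.35 (limma adjusted p = 0.00514 and 0.00244). The cytokine gene Il6 ran the other way, at 1.20 under TGF-β and -0.95 on withdrawal. Cebpd, Tnfrsf1b and Stat3 were also higher under TGF-β, at 0.81, 0.75 and 0.73, as were Rela, Nfkbia and Irf1, at 0.66, 0.64 and 0.56. The second probe set of Cebpd gave -0.031 there and did not pass. After withdrawal the largest rises from control in the list were those of Tnfrsf1b and Cebpd, at 1.95 and 1.45. The NF-kappaB genes Rela and Relb were 1.34 and 1.12 above control. The IL-6 receptor chain genes Il6ra and Il6st were at 1.01 and 1.10, and Ifngr2 at 1.04. Among the 6 lower than control were Nr1h4, Nfkbiz and Socs3, at -0.97, -0.91 and -0.80. Whether these genes bear on the complement genes was not tested.

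**Figure D5:**
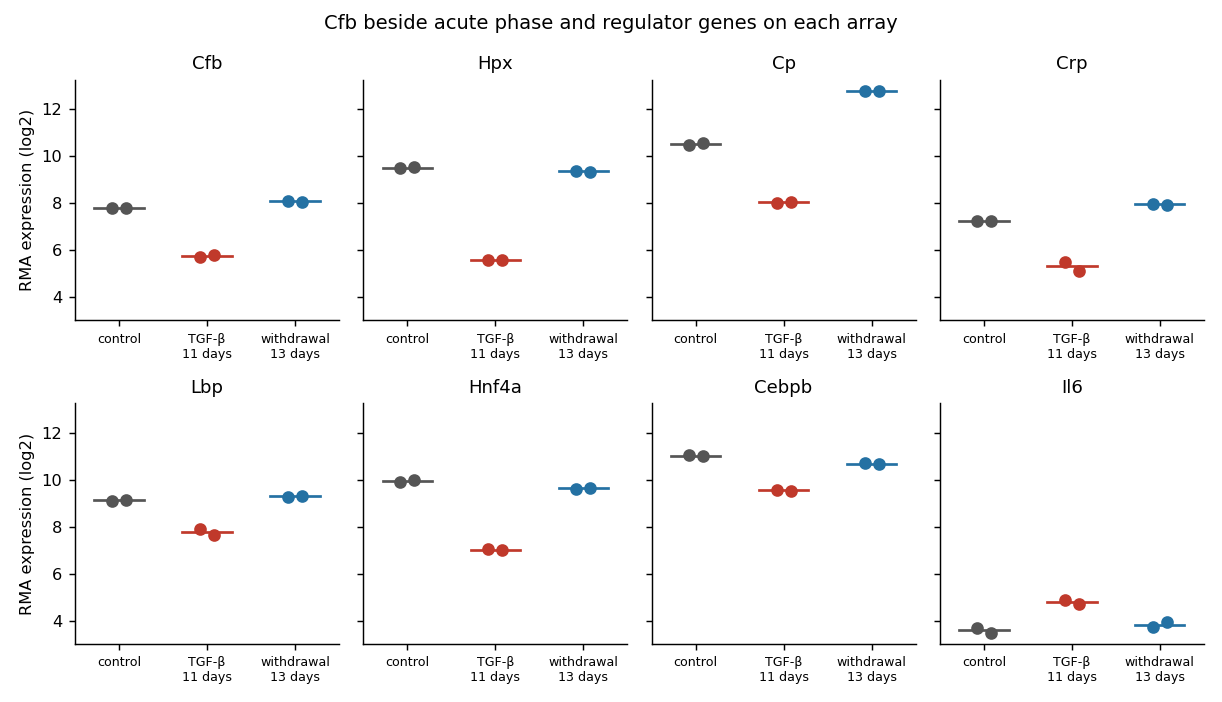
RMA expression (log2) on each array of Cfb beside the acute phase genes Hpx, Cp, Crp and Lbp, the factor genes Hnf4a and Cebpb, and the cytokine gene Il6; points are arrays, lines are group means (n = 2). All but Il6 are lowest on the TGF-β arrays, and Il6 is highest there.

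By likeness of profile over the 6 arrays, measured as the root mean square difference after each gene was centred on its own mean, the genes nearest to C1s1 were Ccdc3 at 0.143, Xdh at 0.166 and Plin4 at 0.183. Xdh encodes xanthine dehydrogenase and Plin4 a lipid droplet protein, and the median distance of all genes from C1s1 was 1.92. Nearest to Cfb were Mgst2 at 0.0710, Neurl1b at 0.0849 and Prxl2a at 0.0966, with a median of 1.05 over all genes. Mgst2 encodes a microsomal glutathione transferase. The 6 arrays form 3 groups, so a small distance says little more than that the group means differ alike.

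Markers of cells that are known to make complement were set beside these results. Among 10 macrophage and leukocyte markers, 1 was up and 1 down under TGF-β, and 2 were higher and 1 lower after withdrawal than in control, or 20% and 30% beside 32.4% and 45.3% of all genes. The mean log2 level of this list was 5.97 to 6.04 in control, 5.81 to 5.89 under TGF-β and 6.02 to 6.07 after withdrawal. Its member Cd14, at 11.22 and 11.24, then 9.66 and 9.64, then 11.48 and 11.54, was lowest under TGF-β as Cfb was, and Cd68 rose by 1.05 on withdrawal from TGF-β and was 0.88 above control. Tyrobp was at -0.41 from control after withdrawal, and the macrophage gene Adgre1 lay between 4.76 and 4.99 and passed in no comparison. Of 10 hepatocyte markers, 3 were higher and 4 lower after withdrawal than in control, or 70% beside 45.3% of all genes, and the list's mean level was 6.08 in control, 5.89 to 5.91 under TGF-β and 6.53 to 6.60 after withdrawal. The albumin gene Alb rose with C1s1, from 6.34 and 6.25 in control and 5.96 and 5.91 under TGF-β to 9.52 and 9.56 after withdrawal, with Ttr and Apoa1 also higher. Apob, which encodes a lipoprotein shell protein, was at -0.68 from control after withdrawal. The hepatocyte genes Ahsg, Serpinc1, Tat and F2 lay between 4.55 and 5.50 on all arrays. Within that range Ahsg, Tat and F2 were lower after withdrawal than in control, at -0.26, -0.28 and -0.26 (limma adjusted p = 0.0272, 0.0381 and 0.0199). Fibroblast markers had a mean level of 5.04 to 5.09, 5.91 to 5.92 and 5.34 in the 3 groups. Of these 10, 4 were higher under TGF-β and 6 did not pass, or 40% beside 32.4% of all genes. The 4 were Col1a1, Col3a1, Col6a3 and Postn. On withdrawal from TGF-β 3 were lower, or 30% beside 43.9%. After withdrawal 3 were higher and 1 lower than control, or 40% beside 45.3%. Epithelial markers had a mean level of 9.78 to 9.80, 8.68 to 8.74 and 8.94 to 8.96, over members that moved both ways. Of these 8, 5 were lower under TGF-β. On withdrawal from TGF-β 2 were higher and 3 lower, with Krt7 at -4.18, and after withdrawal 3 were lower than in control. Those shares, 62.5%, 62.5% and 37.5%, stand beside 32.4%, 43.9% and 45.3% of all genes. The part of any of these cell states in the complement values was not tested.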

How the data were processed

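Gene expression of 6 NMuMG samples was measured on 1-colour Affymetrix arrays after 3' IVT labelling, per the labels' protocols. The authors deposited a log2 value for each probe set, and the submitters' processing notes name RMA. That method corrects background and sets the arrays to a common distribution, so a shift of all genes is removed. The RMA software is not given in the sources used here, and no detection calls were used. The number of arrays limits the precision. Of 45101 probe sets, 64 controls were left out, and 34945 carried 1 gene symbol in the platform annotation, 932 several and 9160 none. The 18193 genes were fitted with limma 3.58.1 in R 4.3.3 to all 6 arrays without covariates (lmFit, eBayes, two-sided, Benjamini-Hochberg over all genes). The fit was tested on simulated data. Figures used matplotlib 3.10.9, and promoter sequences came from RefSeq. The genes and lists were chosen with earlier results of these data known. Named genes are the members, up to 8 called genes per list and comparison, relatives of members, and the 3 nearest genes of members whose group means span at least 1. Alternatives covered the replicate block, an intensity trend, dim genes, probe set choice, quantile and spike scaling, the groups fitted and leaving out each array. The fit over single probe sets was chosen after seeing the data.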

Additional observations from a re-analysis of the deposited data

How the results depend on the processing

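The 18 member differences were recomputed under up to 16 settings, which gave 282 values. Of these 243 kept their direction and side of the threshold. With the direction kept, 22 lost a call and 8 gained one. The other 9 changed sign, and some of these lost a call too. C1s1 on withdrawal from either group and Cfb under TGF-β and on withdrawal from TGF-β kept their calls in every setting that measured them (C1s1 is left out without x, s and a probe sets). Values in sets of 3 stand for TGF-β from control, withdrawal from TGF-β, then withdrawal from control. Spike scaling shifts all genes on an array by the same amount. The median difference of all genes was then -0.30, 0.12 and -0.18 with poly-A and -0.19, -0.23 and -0.42 with hybridization spikes. Values printed with spikes are not taken relative to these medians. With poly-A spikes 4833 of all genes passed in the second and 5358 in the last, and with hybridization spikes 14660 in the last, from 7983 and 8235. The cause of the other changes was not tested.

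Member counts were 4, 4 and 5. Without x, s and a probe sets, which leaves out C1s1, they were 2 for withdrawal against TGF-β and 3 against control, and the last was 2 and 3 with poly-A and hybridization spikes. Leaving out 1 array gave 3 to 4, 4 to 4 and 3 to 5, the lowest against control without either control array. The other complement genes, at 5, 13 and 11, gave 8 for the first with an intensity trend, 3 and 8 for the first and second with the second probe set, 7 and 7 of only 13 still measured for the second and the last without the dimmest 40% of genes, 9, 8 and 6 with poly-A spikes and 10, 23 and 35 with hybridization spikes. Leaving out 1 array gave 2 to 4, 7 to 12 and 8 to 10. With 1 array left out, fewer of all genes passed as well. With the intensity trend 38.1% of all genes passed in the first, and with the second probe set 24.3% and 35.1% in the first and second. Without the dimmest 40%, 69.9% and 71.3% of all genes passed in the second and the last. The shares of all genes were 31.1%, 26.6% and 29.5% with poly-A spikes, and 37.7%, 56% and 80.6% with hybridization spikes. Acute phase counts of 9 and 8 on withdrawal became 17 and 22 with hybridization spikes.

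Signs changed as follows, where the changes with spikes reflect the shift shared by all genes. With hybridization spikes, against control, Cfb gave -0.071, Cd59a -0.062, Masp1 -0.12, Itgb2 -0.0031, C8g -0.020 and Fga -0.11 after withdrawal, and Cd59a -0.10, Cd55b -0.11 and C2 -0.14 under TGF-β. With poly-A spikes Cd59a gave -0.21, Cd55b -0.22, C2 -0.26 and C9 -0.055 under TGF-β, and C2 0.053 and Masp2 0.053 on withdrawal from it. With the second probe set C2 gave -0.29, 0.93 and 0.64, C3ar1 0.17 and Cebpd -0.031 under TGF-β, Cd55 0.083 and Masp2 0.067 on withdrawal from it, and Csmd1 0.18 and Cfp 0.069 against control. With the mean of probe sets C2 gave -0.25, 0.68 and 0.43, and C3ar1 0.058. Without x, s and a sets C2 gave -0.29, 0.93 and 0.64, Masp2 0.067, and Masp1 -0.22 and -0.28 on withdrawal from TGF-β and control. Single probe sets gave, beside the values of C2, Cd55 and Masp1 above, -0.50, 1.22 and 0.72 for the dimmest C2 set, and 0.30, -0.34 and -0.044 for the dimmest Masp1 set. Leaving out 1 array, the range under TGF-β was -0.027 to 0.17 for Cd55b, -0.054 to 0.13 for C2 and -0.13 to 0.054 for Masp2. It was -0.49 to 0.0070 for Cd55 on withdrawal from TGF-β and -0.16 to 0.023 for C2 from control.

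Deviations of same-numbered arrays correlated over genes at -0.0038 for control and TGF-β, 0.0067 for control and withdrawal, and -0.016 for TGF-β and withdrawal. These values show no effect shared by same-numbered arrays over all genes, but cannot show that the arrays were not paired. With the replicate number as a block, 3, 4 and 4 members passed, Cd55 under TGF-β and Cd59a against control losing their calls. Without detection calls, low values such as those of Cd55, and of C1s1 and Colec12 in control, are not set apart from background.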
